A study of Mus musculus with 14 samples.

Results

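The genes described here are 31 genes of the MHC class I pathway, chosen by name as the classical and nonclassical class I heavy chains, their light chain, and the genes that cut, transport and load the peptides they present. They were 31 of 55889 genes in the table of mice without dextran sulfate sodium (DSS) and 31 of 54721 genes in the table of mice after DSS, and all were found in both. RNA sequencing was done on C57BL/6N mice, on colon tissue by the study's methods and on crypts of the small intestine by the labels. Untreated mice were 4 per genotype, WT (WT 1 to WT 4) and MiR-29ab1-/- (KO 1 to KO 4), and 3 mice of each genotype (WT a to WT c, KO a to KO c) were given 3.5% DSS for 3 days. The study says that 1 WT and 1 MiR-29ab1-/- sample were left out of its analysis, and does not say which. The knockout was in the germ line, so every cell type lacked the Mir29a and Mir29b-1 hairpins, and bulk RNA mixes the cell types of a sample. The study's methods give littermates aged 8 to 12 weeks, matched for age and sex, as the rule for its experiments, and no age for these mice alone. The letters only name the columns after DSS, since their numbers did not match the numbers of the mice.

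MHC class I molecules show peptides from the inside of a cell to CD8+ T cells. The proteasome cuts proteins to peptides, and the immunoproteasome subunits Psmb8, Psmb9 and Psmb10 replace the standard catalytic subunits in immune cells and under interferon. The transporter Tap1/Tap2 moves the peptides into the endoplasmic reticulum, where Tapbp (tapasin) and the chaperones Calr, Canx and Pdia3 help to load them onto a heavy chain paired with B2m, the light chain. Interferon gamma induces most of these genes, in part through the transactivator Nlrc5, and intestinal epithelium expresses class I molecules at its surface.

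Reads counted on genes totalled 14231157 to 18185020 per mouse without DSS and 20076719 to 23153149 after DSS. The labels name crypts of the small intestine, whereas the study's methods name colon tissue. Summed over 5 colon markers, led by Car1, the mice had 1370 to 4456 CPM without DSS and 4091 to 5751 CPM after DSS. Summed over 6 small intestinal markers they had 15.9 to 34.0 CPM and 26.8 to 55.2 CPM, with Apoa4 near 0 (0 to 0.110 and 0 to 0.0474 CPM) but Alpi at 9.97 to 21.1 and 16.2 to 31.1 CPM. The smooth muscle genes were at or near 0, with Myh11 at 0 to 0.165 CPM, Acta2 at 0 to 0.279 CPM and Des at 0 to 0.417 CPM without DSS, and 0.159, 0.636 and 0.742 CPM at most after DSS, beside 1429 to 1844 CPM of the epithelial gene Epcam in all mice. The libraries were thus rich in epithelial RNA and poor in smooth muscle RNA, and need not stand for the whole colon wall. Whether crypts or whole tissue were taken was not tested. CPM are counts per gene scaled to the size of the library, with edgeR's TMM factors. Mir29a was at 0 reads in all 14 libraries, WT included. Mir29b-1 was at 0 reads in every library but those of MiR-29ab1-/- mice without DSS, which had 0 to 1. The deleted genes themselves could thus not be checked here. Lncpint, beside the deleted hairpins, had 7 to 23 (WT) against 1386 to 2889 reads (MiR-29ab1-/-) without DSS, and 6 to 14 against 706 to 1144 reads after DSS, so reads there told the genotypes apart in all 14 mice. KO b after DSS had the lowest TMM factor, 0.865.

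The deleted microRNAs recognise messenger RNAs through bases 2 to 8 of the mature strand, the seed, in capitals here. The sequences are from RefSeq (GRCm38.p6, reverse strand of chromosome 6, chr6:31062673-31062694 for miR-29a-3p and chr6:31063025-31063047 for miR-29b-3p), and are shown because both carry the same seed.

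miR-29a-3p: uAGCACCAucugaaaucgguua

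miR-29b-3p: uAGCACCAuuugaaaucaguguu

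Few class I genes carry a match to this seed. In the 3′ UTRs of GENCODE vM21, a match of 7 bases (TGGTGCT to bases 2 to 8, or GGTGCTA to bases 2 to 7 followed by A) was found in 2 of the 31 members (6.45%) and in 3537 of 21037 genes (16.8%). The 2 members were Erap1, the peptidase that trims peptides in the endoplasmic reticulum, and Canx (calnexin), a chaperone of glycoproteins. They had the longest 3′ UTRs of the members, 2472 and 2321 bases, while Psme2 had 44 and Psmb10 55. A longer UTR has more places for a match, and the shares were not adjusted for length. The 29 bases around each match are shown with the matched bases in capitals, because they are the only such matches among the members.

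Erap1: atatcaacataTGGTGCTgtaatatacta

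Canx: gaatgcagatgGGTGCTAgaggagcctct

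Without DSS the log2 fold change (MiR-29ab1-/- over WT) was 0.14 ± 0.11 (SE, 4 mice per genotype) for Erap1 and −0.08 ± 0.14 for Canx. After DSS it was 0.09 ± 0.11 and 0.07 ± 0.12 (SE, 3 mice per genotype). None of these 4 values exceeded 2 standard errors.

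The promoters of the heavy chains share sequence. RefSeq promoters (250 bases before to 50 after a start site, GRCm38.p6) were found for 24 of the 31 members. The core of the interferon response element, AANNGAAA on either strand, was in 16 of the 24 (66.7%) and in 26.7% of 27025 genes. The kappa B motif GGGANTNCC was in 5 of the 24 (20.8%) and in 4.57% of the genes, the gamma-activated site TTCNNNGAA in 2 (8.33%, H2-M3 and Psmb8) and 9.55%, and the cyclic AMP response element TGACGTCA in 0 of the 24 and 2.03%. Of 11 heavy chain promoters, 9 held the core as TTTCACTT (81.8%), which, with its reverse complement AAGTGAAA, was in 1.91% of the genes. These letters were picked after the matches were seen, and the heavy chains are related by descent, so the windows are not independent. The stretches below end with this core in capitals, and the kappa B match is in capitals where there is one. They are shown for all 9 genes, classical and nonclassical, to compare the bases before the core, at chr17:34000430-34000457 (H2-K1, reverse strand), chr17:35262924-35262951 (H2-D1, forward), chr17:35379444-35379471 (H2-Q4, forward), chr17:35424678-35424705 (H2-Q6, forward), chr17:35439022-35439049 (H2-Q7, forward), chr17:35469914-35469941 (H2-Q10, forward), chr17:36190270-36190297 (H2-T3, reverse), chr17:36042926-36042953 (H2-T22, reverse) and chr17:37270113-37270140 (H2-M3, forward).

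H2-K1: GGGATTCCCcatctccacagTTTCACTT

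H2-D1: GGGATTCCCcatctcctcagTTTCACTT

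H2-Q4: GGGATTTCCcatctccccagTTTCACTT

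H2-Q6: GGGATTCCCcatctccccagTTTCACTT

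H2-Q7: gGGGATTCCCatctccccagTTTCACTT

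H2-Q10: aggactccccatctccccagTTTCACTT

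H2-T3: tgggctgtacagaactatagTTTCACTT

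H2-T22: agagtccctaattggcttagTTTCACTT

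H2-M3: ttcccccatttcctctgaggTTTCACTT

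Against H2-K1, 27 of the 28 bases were equal in H2-D1 and in H2-Q6, 26 in H2-Q4, 25 in H2-Q10, 24 in H2-Q7, 17 in H2-T3 and in H2-T22 and 13 in H2-M3, the 8 bases of the core included. In H2-Q7 the kappa B match lies 1 base closer to the core. B2m holds a core of its own letters, at chr2:122147539-122147568 on the forward strand.

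B2m: taagaacatgaAACTGAAAatgggaaagtc

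The windows of Tap1 and Psmb9, which are read in opposite directions, share 275 of their 300 bases and held none of these motifs. A match is a run of letters and was not tested as a binding site. Tap2, Tapbpl, Nlrc5, Cd1d1, H2-Q1, H2-T10 and H2-T24 were not among the promoters.

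The question of the first comparison is what the deletion does to the pathway without DSS. Without DSS, 30 of the 31 members had enough reads for a test, and 23 of the 30 had a positive log2 fold change, with a median of 0.34 over the members and −0.002 over all 15441 genes tested. Of all genes tested 49.5% had a positive value. With edgeR's quasi-likelihood test, the unadjusted p was under 0.05 for 6 members with higher values in MiR-29ab1-/- mice (B2m, Tap1, Tap2, Tapbpl, Psmb8 and Psmb9) and for 0 with lower values. Among all genes 2.09% were higher and 1.58% lower at that p. No member passed an adjusted p under 0.05, which 3 genes did in all (0.0194%), and DESeq2 gave 0 members too. In bulk RNA, fewer cells of a type and less RNA per cell cannot be told apart.

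**Figure D1:**
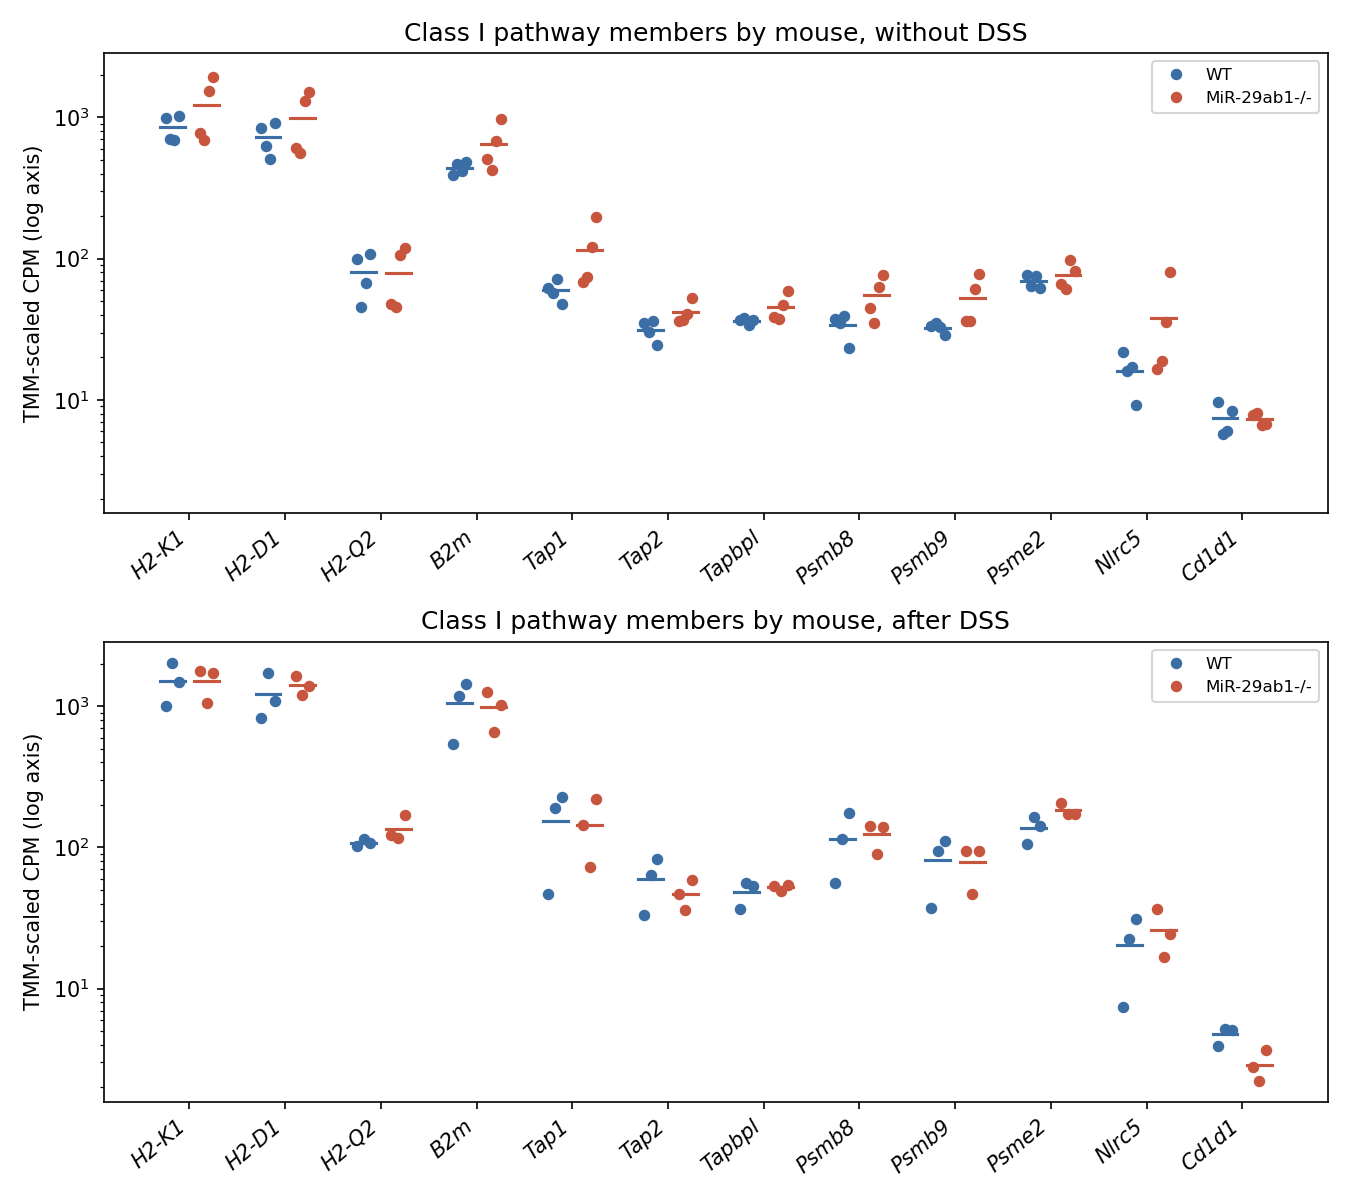
TMM-scaled CPM (log axis) of 12 members in every mouse (points) with the mean of each genotype (lines), without DSS above and after DSS below. Without DSS the highest points of B2m (982 CPM), Tap1 (199 CPM) and Nlrc5 (80.8 CPM) all belong to KO 4, and after DSS the lowest points of these genes belong to WT a.

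The heavy chains H2-K1 and H2-D1 are the classical class I molecules of this strain, which present peptides to most CD8+ T cells. H2-K1 (chromosome 17, 33996017 to 34000347) had 991, 703, 696 and 1024 CPM in WT 1 to WT 4 and 771, 689, 1529 and 1948 CPM in KO 1 to KO 4. KO 3 and KO 4 were above every WT mouse, while KO 1 lay among the WT mice and KO 2 just below them. Its log2 fold change was 0.53 ± 0.34 (SE; unadjusted p = 0.15 from edgeR). H2-D1 (chromosome 17, 35262730 to 35267499) had 840, 629, 509 and 909 CPM in WT mice and 606, 559, 1299 and 1505 CPM in MiR-29ab1-/- mice. Again KO 3 and KO 4 were above every WT mouse and KO 1 and KO 2 among them, with a log2 fold change of 0.46 ± 0.35 (SE; unadjusted p = 0.225 from edgeR).

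Among the nonclassical heavy chains, 9 of 12 had a positive log2 fold change, with a median of 0.39, none of them at an unadjusted p under 0.05. Values ran from −0.19 ± 0.30 (SE) for H2-Q1 to 1.01 ± 0.60 for H2-Q6 and 1.01 ± 0.54 for H2-Q7, which belongs to the Qa-2 family. H2-T23, which encodes Qa-1, a ligand of the receptors Cd94/Nkg2, ranged over 242 to 326 CPM (WT) and 269 to 468 CPM (MiR-29ab1-/-). H2-T3, the thymus leukemia antigen of intestinal epithelium that binds CD8αα, had a log2 fold change of −0.07 ± 0.27 (SE), with ranges of 33.7 to 46.7 CPM (WT) and 22.1 to 59.7 CPM (MiR-29ab1-/-). H2-M3, which presents formylated peptides, had 8.26 to 9.66 CPM and 7.74 to 11.97 CPM. Heavy chains share long stretches. Of all 50-base stretches of their transcripts, 32% in H2-Q6, 26.4% in H2-Q7, 34.5% in H2-T22, 32.9% in H2-T10, 12.8% in H2-D1 and 9.63% in H2-K1 also occurred in another gene, so reads could be split between them. H2-T10 is given as a polymorphic pseudogene.

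B2m (chromosome 2, 122147686 to 122153083), the light chain that pairs with the heavy chains, has no stretch shared with another gene. It had 392, 465, 420 and 487 CPM in WT 1 to WT 4 and 506, 424, 686 and 982 CPM in KO 1 to KO 4. KO 1, KO 3 and KO 4 were above every WT mouse, and KO 2 was among them. The means were 441 ± 43.1 CPM and 650 ± 247 CPM (SD, n = 4 each), a log2 fold change of 0.56 ± 0.23 (SE; unadjusted p = 0.0385, adjusted p = 1.00 from edgeR).

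Transport and loading genes had 5 of 5 positive log2 fold changes, with a median of 0.32. Tap1 (chromosome 17, 34187553 to 34197225) had 61.7, 57.2, 72.3 and 47.7 CPM in WT mice and 68.0, 74.5, 122 and 199 CPM in KO 1 to KO 4. KO 1 lay within the WT range, KO 2 just above it, and KO 3 and KO 4 far above it. The log2 fold change was 0.95 ± 0.34 (SE; unadjusted p = 0.0233, adjusted p = 1.00 from edgeR). Tap2 (chromosome 17, 34203527 to 34216321) had 34.9, 30.4, 36.1 and 24.5 CPM in WT mice and 36.2, 36.7, 40.6 and 52.8 CPM in MiR-29ab1-/- mice. The genotypes of Tap2 did not overlap, but KO 1 exceeded WT 3 only narrowly. Its log2 fold change was 0.40 ± 0.15 (SE; unadjusted p = 0.0245 from edgeR).

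Tapbpl (TAPBPR, a relative of tapasin that edits the bound peptides; chromosome 6, 125223933 to 125231860) had 36.6, 38.3, 34.2 and 36.9 CPM in WT mice and 38.5, 37.3, 47.2 and 58.9 CPM in KO 1 to KO 4. KO 3 and KO 4 stood clear of the WT mice, KO 1 was barely above them, and the log2 fold change was 0.32 ± 0.14 (SE; unadjusted p = 0.0443 from edgeR). Tapbp itself had 0.12 ± 0.10 and Erap1 0.14 ± 0.11 (log2 fold change, SE).

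Of the immunoproteasome and its activator, all 5 genes had positive log2 fold changes, with a median of 0.20. Psmb8 (chromosome 17, 34197721 to 34201454) had 37.6, 35.2, 39.5 and 23.5 CPM in WT mice and 45.1, 35.1, 62.8 and 76.8 CPM in KO 1 to KO 4. KO 1, KO 3 and KO 4 were above the WT mice, and the log2 fold change was 0.69 ± 0.25 (SE; unadjusted p = 0.0239 from edgeR). Psmb9 (chromosome 17, 34181987 to 34187764) had 33.3, 35.1, 33.0 and 28.9 CPM in WT mice and 36.0, 36.3, 61.1 and 77.3 CPM in MiR-29ab1-/- mice. Every MiR-29ab1-/- mouse was above every WT mouse, KO 1 and KO 2 narrowly. Its log2 fold change was 0.69 ± 0.24 (SE; unadjusted p = 0.018 from edgeR). Psmb10, the third catalytic subunit, had 0.20 ± 0.17, and the activator subunits Psme1 and Psme2 had 0.20 ± 0.11 and 0.14 ± 0.15 (log2 fold change, SE). Psme2 had 77.0, 64.5, 75.5 and 61.6 CPM in WT mice and 66.3, 60.5, 97.6 and 82.1 CPM in KO 1 to KO 4.

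Nlrc5 (chromosome 8, 94434356 to 94527272), the transactivator of class I promoters, had 21.97, 16.1, 17.2 and 9.14 CPM in WT mice and 16.6, 18.8, 35.7 and 80.8 CPM in KO 1 to KO 4. KO 1 and KO 2 were within the WT range, and KO 4 was 8.84 times WT 4, the lowest mouse. Its log2 fold change of 1.23 ± 0.55 (SE; unadjusted p = 0.0555 from edgeR) was the largest among the members.

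Calr, Canx and Pdia3, the general chaperones that fold glycoproteins of all kinds, had log2 fold changes within 1 standard error of 0, at −0.08 ± 0.23, −0.08 ± 0.14 and −0.11 ± 0.17 (SE), and WT 2 was the highest mouse in all 3. Cd1d1, which presents lipids to NKT cells and lies outside the MHC, had 9.64, 5.73, 5.99 and 8.36 CPM in WT mice and 7.84, 8.04, 6.67 and 6.74 CPM in MiR-29ab1-/- mice, which overlapped. H2-Q2 had 100, 45.6, 67.8 and 109 CPM in WT mice and 47.5, 45.7, 106 and 119 CPM in KO 1 to KO 4. The genotypes overlapped, with KO 4 above every WT mouse, at a log2 fold change of −0.02 ± 0.41 (SE). Mr1, which presents vitamin B metabolites to MAIT cells, had 2 to 13 reads per mouse and was not tested. The 18 tested members not given mouse by mouse had log2 fold changes from −0.19 to 1.01, 13 of them positive.

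KO 4 was the highest of the 8 mice in 23 of the 30 tested members, and KO 3 and KO 4 were the 2 highest in 21 of 30. KO 1 was highest in 1 member and KO 2 in 0. Summed over the tested members, WT 1 to WT 4 had 5360, 5848, 4646 and 5901 CPM and KO 1 to KO 4 had 5022, 4758, 7676 and 8759 CPM. Genotypes did not overlap with MiR-29ab1-/- mice above in 2 of the 30 members (Tap2 and Psmb9), beside 1.11% of all genes, and in 0 with MiR-29ab1-/- mice below, beside 0.92%.

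**Figure D2:**
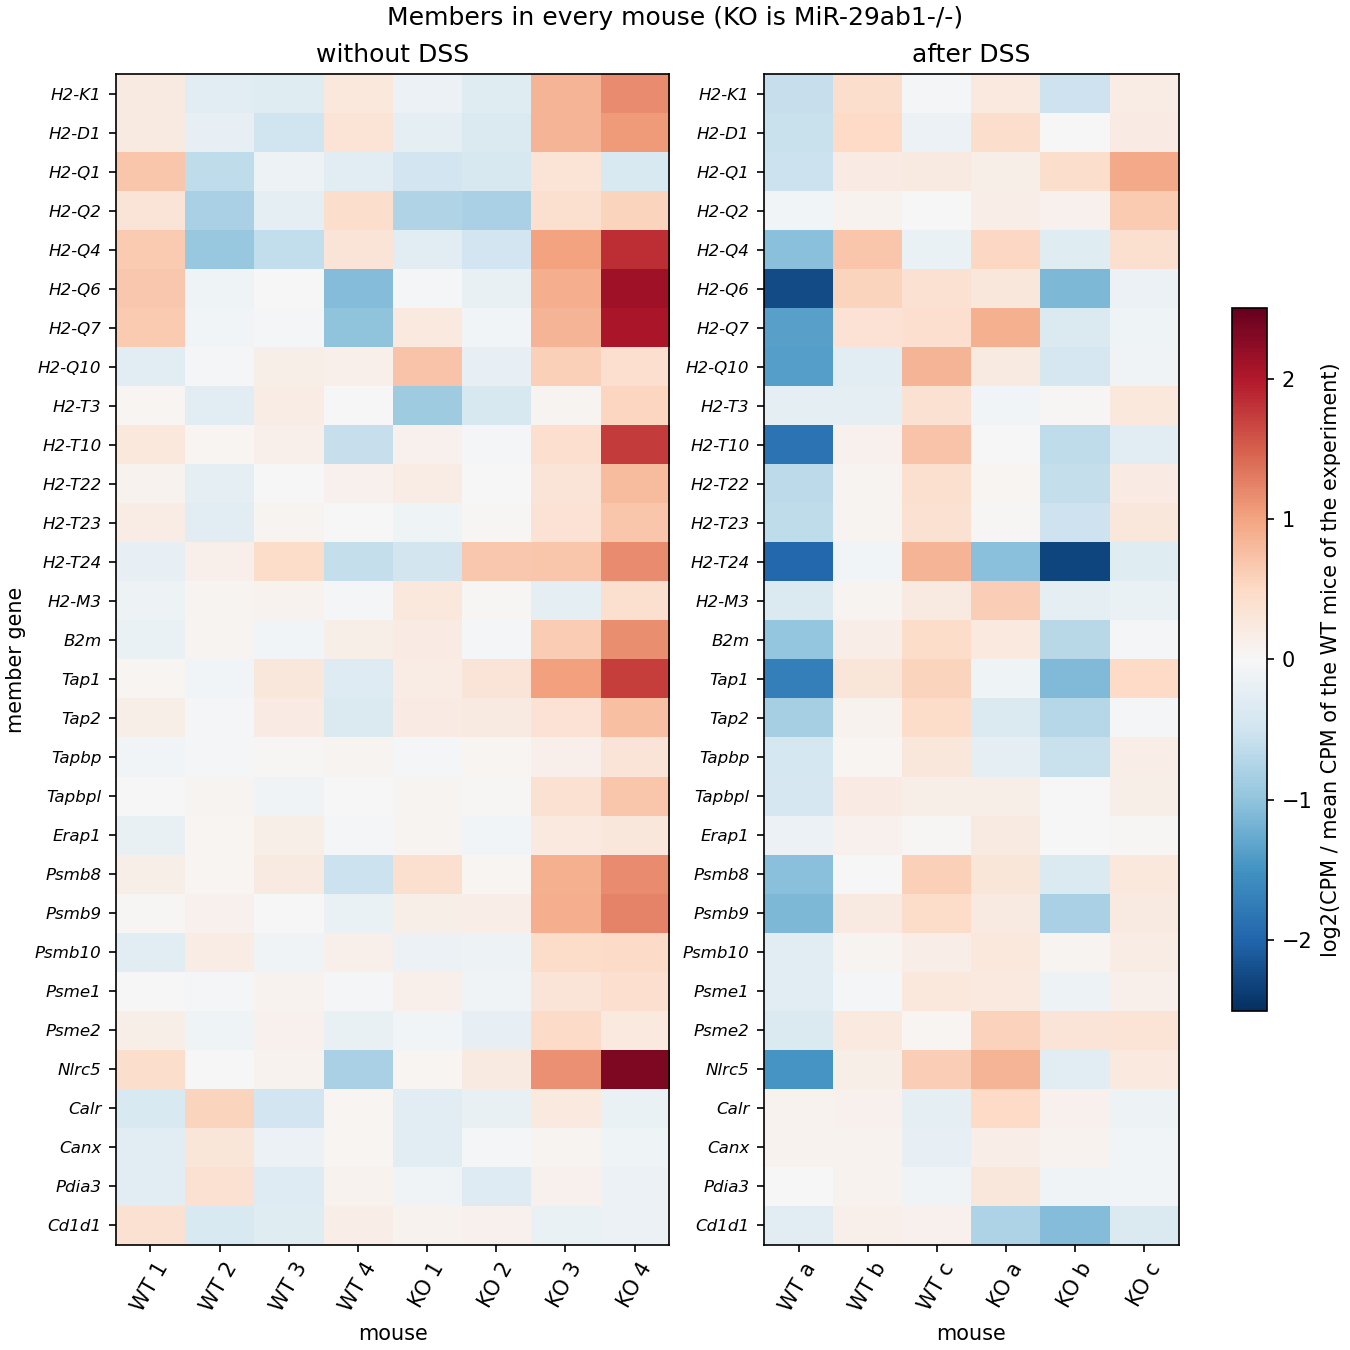
Colour gives log2 of a mouse's CPM over the mean CPM of the WT mice of its experiment, for the 30 tested members (rows, ordered by role) in each mouse (columns), without DSS on the left and after DSS on the right. On the left KO 4 is the highest mouse in 23 of the 30 rows, and on the right WT a is the lowest in 24 of the 30.

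The count of 6 members moved with single mice. It was 0 without WT 4, 2 without WT 2 or without KO 4, 3 without KO 3, 10 without KO 1 and 13 without KO 2. In the same fits the share of all genes higher at that p was 1.79% without WT 4, 2.18% without WT 2, 1.89% without KO 4, 2.67% without KO 3, 2.22% without KO 1 and 2.09% without KO 2. In the model of all 14 mice, where the spread was estimated over both experiments, it was 1 of 31 (Tapbpl), beside 2.07% of all genes. The unadjusted p of B2m rose above 0.05 when any 1 of the WT mice, KO 3 or KO 4 was left out. Without KO 4 the log2 fold change was 0.56 for Nlrc5, 0.56 for Tap1, 0.29 for B2m, 0.22 for H2-K1, 0.19 for H2-D1, 0.27 for Tap2, 0.17 for Tapbpl and 0.45 for Psmb9, each over 1.5 times smaller than with all mice, and 0.49 for Psmb8, and Tap1 and Psmb9 kept an unadjusted p under 0.05 (0.0273 and 0.0347 from edgeR).

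Other lists were read beside the members. Of all genes without DSS, 49.5% had a positive log2 fold change. At an unadjusted p under 0.05, 2.09% of all genes were higher and 1.58% lower. MHC class II genes, which present peptides to CD4+ T cells, had 12 of 12 tested genes with a positive log2 fold change and a median of 0.99. Cd74 (1.40 ± 0.58, SE) and Ciita (1.26 ± 0.40), their transactivator, had an unadjusted p under 0.05 (0.044 and 0.0108 from edgeR). Their summed level was 273 to 322 CPM in WT mice and 466, 216, 568 and 1020 CPM in KO 1 to KO 4, so that KO 2 was lowest and KO 4 highest. In the list of transcription and interferon signalling genes, 19 of 22 were positive with a median of 0.08, and Irf1, a transcription factor induced by interferon gamma, had 0.26 ± 0.10 (SE; unadjusted p = 0.0211 from edgeR). Of the standard proteasome 3 of 17 were positive, with a median of −0.05, and of ER folding and trimming genes outside the members 3 of 12, with a median of −0.02. The 3 tested of the other class I heavy chains had a median of 0.08, and receptors of class I molecules 5 of 6 positive and a median of 0.55, with 0 genes at an unadjusted p under 0.05 in these 4 lists.

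Markers of leukocytes moved with some of these mice. Summed over 14 genes they had 162, 58.2, 83.1 and 48.5 CPM in WT 1 to WT 4 and 57.5, 49.1, 83.0 and 211 CPM in KO 1 to KO 4. KO 4 was thus highest, WT 1, with 5360 CPM of summed class I members, came next, and KO 3 was at the level of WT 3. Of the 11 tested leukocyte markers 8 had a positive log2 fold change, with a median of 0.17, and 0 an unadjusted p under 0.05. Markers of stroma, vessel and muscle summed to 14.9 to 55.7 CPM (WT) and 18.4 to 56.3 CPM (MiR-29ab1-/-), and epithelial markers 8019 to 10871 CPM and 8185 to 10718 CPM. The part of leukocytes in the class I values was not tested.

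The second comparison asks the same after DSS, an agent that injures the colon epithelium. After DSS 30 members were tested, 18 had a positive log2 fold change, and the median was 0.07 beside −0.005 over all 14908 genes. Of all genes tested 49% had a positive value. At an unadjusted p under 0.05, 2 members were higher in MiR-29ab1-/- mice (H2-Q2 and Psme2) and 1 was lower (Cd1d1), against 3.98% and 3.25% of all genes. No member passed an adjusted p under 0.05 with edgeR or DESeq2. In all, 2 genes did with edgeR (0.0134%).

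**Figure D3:**
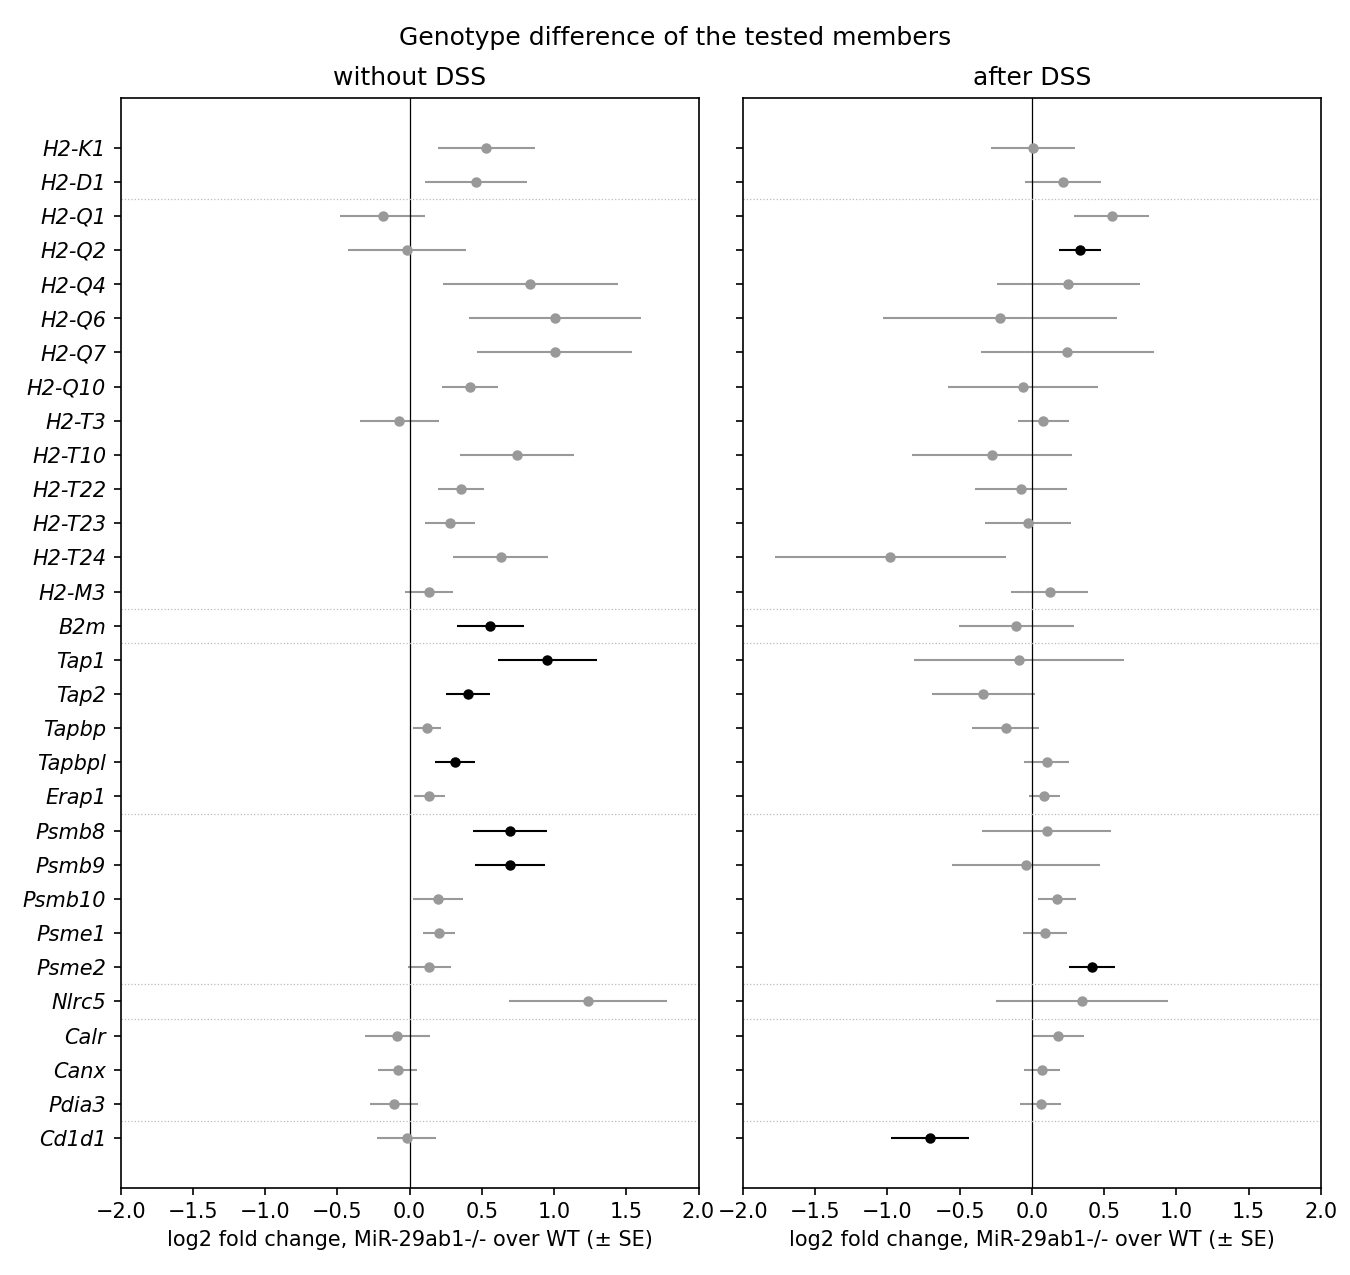
Log2 fold change of MiR-29ab1-/- over WT mice with its standard error for the 30 tested members, without DSS (left) and after DSS (right), with dotted lines between roles and black points at an unadjusted p under 0.05. On the left most points lie right of 0 (median 0.34), and on the right they scatter around 0 (median 0.07).

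Psme2, a subunit of the PA28 activator that opens the proteasome, had 106, 163 and 143 CPM in WT a to WT c and 205, 171 and 173 CPM in KO a to KO c. The genotypes did not overlap, and KO b, low in most members, lay above every WT mouse here. The means were 137 ± 28.7 CPM and 183 ± 18.8 CPM (SD, n = 3 each), with a log2 fold change of 0.41 ± 0.16 (SE; unadjusted p = 0.0275, adjusted p = 0.655 from edgeR). Of the 50-base stretches of Psme2, 28.3% also occur in another gene, first of all Psme2b. Without WT a or without KO a the unadjusted p of Psme2 rose above 0.05.

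H2-Q2, a nonclassical heavy chain of the Qa region (chromosome 17, 35342242 to 35346762), had 103, 115 and 107 CPM in WT mice and 122, 116 and 170 CPM in MiR-29ab1-/- mice. WT b and KO b differed by less than 2 CPM, and KO c alone stood clear. The log2 fold change was 0.33 ± 0.15 (SE; unadjusted p = 0.0492, adjusted p = 0.668 from edgeR). The unadjusted p rose above 0.05 when any 1 of the WT mice or KO c was left out, and without KO c the log2 fold change was 0.14.

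Cd1d1 (chromosome 3, 86995834 to 86999441) had 3.89, 5.19 and 5.12 CPM in WT mice and 2.78, 2.23 and 3.66 CPM in MiR-29ab1-/- mice. All MiR-29ab1-/- mice were lower, and the gap between WT a and KO c was small. Its log2 fold change was −0.71 ± 0.27 (SE; unadjusted p = 0.0275, adjusted p = 0.655 from edgeR). Without WT b, WT c, KO a or KO b it no longer had an unadjusted p under 0.05. Of its 50-base stretches 19.1% also occur in another gene, Cd1d2.

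These 3 were also the members whose genotypes did not overlap, 2 with MiR-29ab1-/- mice above and 1 below, beside 5.33% and 6.28% of all genes.

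H2-K1, H2-D1, B2m, Tap1, Tap2, Tapbpl, Psmb8, Psmb9 and Nlrc5, in which KO 3 and KO 4 were the 2 highest mice without DSS, overlapped between the genotypes after DSS, unlike Psme2. H2-K1 had 1007, 2036 and 1482 CPM in WT a to WT c and 1777, 1055 and 1715 CPM in KO a to KO c, a log2 fold change of 0.01 ± 0.29 (SE). H2-D1 had 822, 1722 and 1091 CPM in WT mice and 1635, 1203 and 1389 CPM in MiR-29ab1-/- mice (0.22 ± 0.26). In both genes WT a was lowest and WT b highest.

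B2m had 542, 1184 and 1445 CPM in WT a to WT c and 1259, 655 and 1028 CPM in KO a to KO c, with a log2 fold change of −0.11 ± 0.40 (SE). Tap1 had 47.2, 189 and 227 CPM in WT mice and 144, 72.2 and 220 CPM in MiR-29ab1-/- mice (−0.09 ± 0.73). Within each genotype the highest mouse thus had over 3 times the Tap1 of the lowest, and the genotypes overlapped.

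Tap2 had 33.3, 63.3 and 82.2 CPM in WT mice and 46.7, 36.2 and 58.6 CPM in MiR-29ab1-/- mice (log2 fold change −0.34 ± 0.36, SE, and −0.031 without WT c). Tapbpl had 36.5, 55.9 and 53.7 CPM and 53.6, 48.8 and 54.2 CPM (0.10 ± 0.16). These were again lowest in WT a.

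Psmb8 had 56.1, 115 and 175 CPM in WT mice and 143, 89.5 and 139 CPM in MiR-29ab1-/- mice (log2 fold change 0.10 ± 0.45, SE). Psmb9 had 37.1, 94.0 and 112 CPM and 94.7, 46.4 and 94.7 CPM (−0.04 ± 0.51). Nlrc5 had 7.37, 22.6 and 31.4 CPM and 36.8, 16.7 and 24.3 CPM (0.35 ± 0.60). In each of the 3 genes WT a and KO b were the 2 lowest mice.

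WT a was the lowest of the 6 mice in 24 of the 30 tested members, and WT a and KO b were the 2 lowest in 21 of 30. Summed over the tested members, WT a to WT c had 5892, 9480 and 8517 CPM and KO a to KO c had 9688, 6745 and 8610 CPM. Calr, Canx and Pdia3 were not lowest in WT a, with 2073, 2155 and 1792 CPM for Calr, Canx and Pdia3 together in WT mice and 2580, 2060 and 1883 CPM in MiR-29ab1-/- mice. Nonclassical heavy chains ran from −0.98 ± 0.80 for H2-T24 to 0.55 ± 0.26 for H2-Q1 (log2 fold change, SE), 6 of 12 positive. The 18 tested members not given mouse by mouse included 11 positive values, and their smallest unadjusted p was 0.0675.

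Among the other genes of the pathway after DSS, the standard proteasome had 16 of 17 positive log2 fold changes with a median of 0.16. Of these 4 had an unadjusted p under 0.05, among them Psma3 (0.32 ± 0.12, SE), Psmb7 (0.34 ± 0.13) and the assembly factor Pomp (0.26 ± 0.11). Of all genes after DSS, 49% had a positive log2 fold change, and at that p 3.98% were higher and 3.25% lower. MHC class II had 8 of 10 positive with a median of 0.44, and 4 at an unadjusted p under 0.05, among them H2-Eb1 (1.07 ± 0.17), H2-Ab1 (0.71 ± 0.21) and the lysosomal thiol reductase Ifi30 (0.37 ± 0.09). Class I receptors had 6 of 6 positive with a median of 1.07, and Cd8b1 (1.16 ± 0.44) and the inhibitory receptor Klrc1, which binds Qa-1 (1.38 ± 0.42), had an unadjusted p under 0.05. Their summed levels overlapped, at 19.8 to 39.6 CPM (WT) and 29.4 to 76.2 CPM (MiR-29ab1-/-). Of ER folding and trimming genes outside the members 8 of 12 were positive (median 0.10), with the peptidase Blmh at 0.38 ± 0.09. Transcription and interferon signalling genes had 14 of 22 positive and a median of 0.01, with 0 at that p, and the 4 tested other heavy chains a median of −0.20, also with 0. None of the genes named in this paragraph passed an adjusted p under 0.05 with edgeR, where the smallest was 0.563 for H2-Eb1.

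Leukocyte markers after DSS summed to 48.2, 50.1 and 100 CPM in WT a to WT c and 136, 116 and 60.7 CPM in KO a to KO c. KO b, among the lowest mice in class I genes, thus had the second highest leukocyte level. Of 11 tested markers 10 were positive (median 0.48), and S100a8, a neutrophil gene, was at 3.19 ± 1.17 (log2 fold change, SE; unadjusted p = 0.0392 from edgeR). Stroma, vessel and muscle markers summed to 22.1 to 39.7 CPM (WT) and 23.4 to 51.6 CPM (MiR-29ab1-/-), with 3 of 5 tested genes positive (median 0.34), Col3a1 at 1.24 ± 0.31 (unadjusted p = 0.00365 from edgeR) and Pecam1 at −0.47, and epithelial markers 19105 to 23253 CPM and 19995 to 21607 CPM. Their part in the class I values was not tested.

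Whether the genotype difference itself differed between the experiments was tested by the interaction over all 14 mice, on 16370 genes. All 31 members were tested, and 23 had a smaller log2 fold change after DSS than without, with a median difference of −0.30 beside −0.001 over all genes. The difference was −1.03 ± 0.76 for Tap1, −0.65 ± 0.47 for B2m, −0.73 ± 0.36 for Tap2 and −0.88 ± 0.85 for Nlrc5 (log2, SE). No member had an unadjusted p under 0.05 with edgeR, the smallest being 0.0525 for Cd1d1 (−0.68 ± 0.32), beside 4.03% of all genes, and DESeq2 gave 2 members with a smaller difference, beside 2.41% of all genes smaller in its fit. At an adjusted p under 0.05 there were 0 members and 0 genes (0%) with edgeR and with DESeq2, and 660 genes had an unadjusted p under 0.05 with edgeR. Without WT a, 11 of the 31 members had a smaller difference after DSS at an unadjusted p under 0.05, beside 2.08% of all genes in the same fit, and without KO c 4 members, beside 5.54%. Single mice moved the values by over 1.5 times, to −0.65 for Tap1 and −0.22 for Nlrc5 without KO 4 of the mice without DSS, and to −0.37 for B2m and −0.44 for Tap2 without WT c. The members' genotype differences are therefore not shown to differ between the experiments.

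Per length, as CPM per kb of gene model, B2m was the most abundant member in WT mice without DSS (513 CPM per kb), followed by H2-K1 (291), Pdia3 (286), H2-D1 (280) and Calr (275). H2-T23 (99.9), Canx (76.1), Psmb10 (67.5), Psme1 (48.5) and Tapbp (43.1) came next, and Tap1 (10.9), Tap2 (8.32), Nlrc5 (1.90) and H2-T10 (0.95) were far lower. H2-K1, Pdia3, H2-D1 and Calr did not differ beyond the spread between mice. After DSS B2m was again first in WT mice, at 1229 CPM per kb, followed by H2-K1 (578), H2-D1 (469.9), Calr (304) and Pdia3 (250.5). DSS and the experiment (table and mice) cannot be told apart, and the gene lengths of H2-K1, Tapbp, Psmb8 and Psmb9 differ between the tables, so the 2 experiments stand side by side without a test.

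Ratios within a mouse need no scaling between mice, and were chosen after the values were seen. The gene lengths of H2-K1, Psmb8 and Psmb9 differ between the experiments, so the ratios with these genes are read within an experiment only. Psmb8 over Psmb5, the subunit it replaces, was 0.0861 to 0.156 in WT mice without DSS and 0.166, 0.149, 0.173 and 0.396 in KO 1 to KO 4 (reads per kb). Psmb9 over Psmb6 was 0.168 to 0.232 in WT mice and 0.241, 0.268, 0.363 and 0.551 in KO 1 to KO 4, so that all 4 MiR-29ab1-/- mice were above the WT mice. The genotypes did not overlap in Psmb9 alone either, and how often other ratios separate them was not examined. Psmb10 over Psmb7 was 3.85 to 4.36 in WT mice and 3.98, 4.41, 4.66 and 5.78 in KO 1 to KO 4, which overlapped through KO 1. After DSS the ratio of Psmb8 to Psmb5 was 0.200, 0.448 and 0.683 in WT a to WT c and 0.415, 0.278 and 0.551 in KO a to KO c, and that of Psmb10 to Psmb7 was 6.03, 6.27 and 7.79 against 5.48, 5.66 and 6.98. The ratio of Psmb9 to Psmb6 after DSS was 0.186, 0.489 and 0.541 in WT a to WT c and 0.395, 0.204 and 0.533 in KO a to KO c, and the genotypes overlapped in all 3 ratios. Tap1 over Tap2 was 1.22 to 1.38 in WT mice without DSS and 1.29, 1.40, 2.07 and 2.60 in KO 1 to KO 4, and after DSS 0.978 to 2.07 (WT) and 1.38 to 2.59 (MiR-29ab1-/-). H2-K1 over B2m overlapped between the genotypes, at 0.442 to 0.740 (WT) and 0.446 to 0.652 (MiR-29ab1-/-) without DSS, and 0.338 to 0.613 and 0.465 to 0.550 after DSS.

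**Figure D4:**
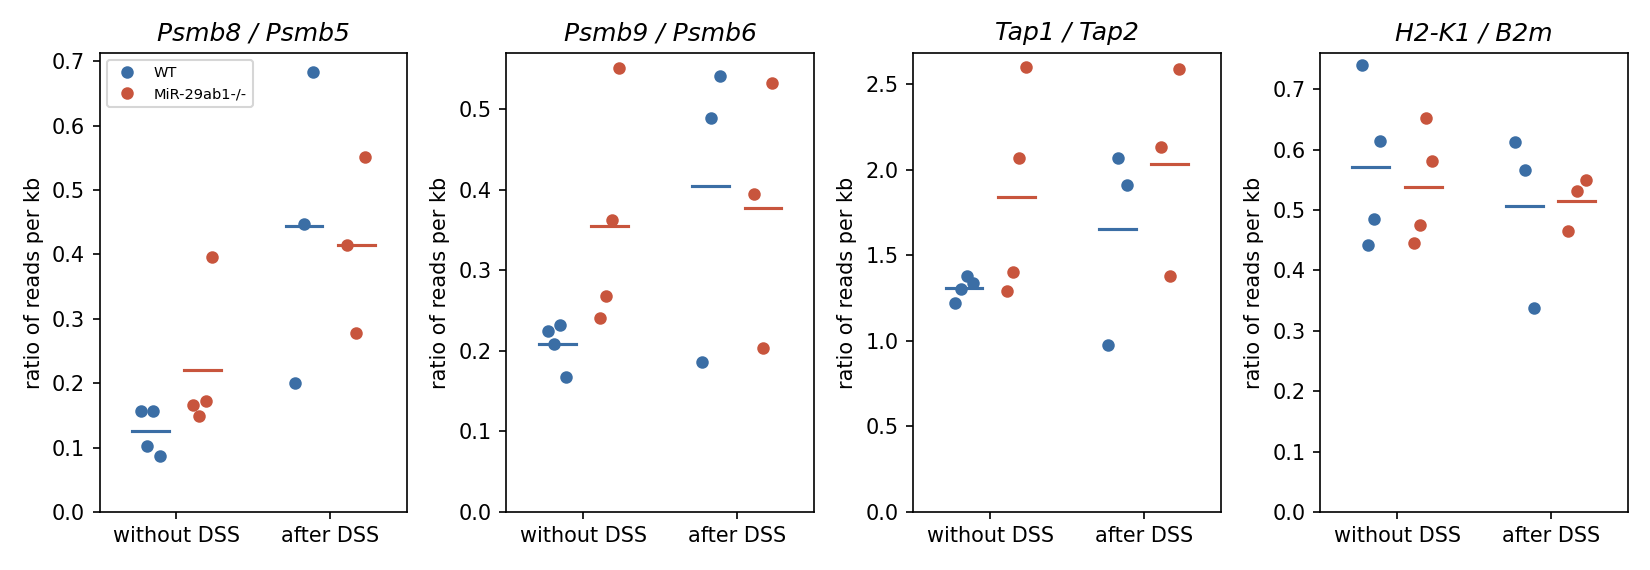
Ratio of reads per kb of gene model within each mouse (points) with the mean of each genotype (lines), on linear axes from 0, without and after DSS. The gene lengths of H2-K1, Psmb8 and Psmb9 differ between the 2 experiments. KO 4 has the highest ratio without DSS for Psmb8 / Psmb5 (0.396), Psmb9 / Psmb6 (0.551) and Tap1 / Tap2 (2.60), while H2-K1 / B2m overlaps between the genotypes in both experiments.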

How the data were processed

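RNA, from mouse colon by the study's methods, was extracted with TRIzol and sequenced from NEBNext Ultra Directional libraries. Each experiment has its own table, in which the authors give unnormalized read counts for every gene and mouse, deposited beside the length of each gene model (a unit other than expression) and FPKM. The submitters' processing notes name HISAT2 and DESeq2. The counting tool, use of strand and genome build are not given in the sources used here. Of gene identifiers found in GENCODE vM21 (GRCm38), 99.47% without DSS and 98.33% after DSS have the same start and end there. The 14 FPKM columns and the authors' own group means, fold changes and p-values were not used.

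Genes were kept by filterByExpr (minimum count 10, minimum total 15) and tested with glmQLFit and glmQLFTest, robust, in edgeR 4.0.16 (R 4.3.3) after TMM scaling, within each table, with Benjamini-Hochberg adjustment over all genes tested, and for the interaction in 1 model of 14 mice. SE is the log2 fold change over the square root of F. The script was tested on simulated data. Alternatives were DESeq2 1.42.0, RLE factors, other filters, TMM factors without class I and II genes, the replicate number as a block, all mice in 1 model and each mouse left out. At the depths found, 3 reads are 0.165 to 0.211 CPM without DSS and 0.130 to 0.149 CPM after DSS, for counting error only. The labels name no batches, and p-values measure the spread between these libraries. The members and lists were chosen with earlier results of these data known. Values in every mouse were given for B2m, Tap1, H2-K1, H2-D1, Nlrc5 and members with an unadjusted p under 0.05 or genotypes that did not overlap in either experiment, or with an unadjusted p under 0.05 in the interaction, and from each list up to 3 genes of smallest unadjusted p under 0.05.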

Additional observations from a re-analysis of the deposited data

Results flagged for a closer look

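Among 60 groups of 4 mice without DSS (30 members in each genotype), 2 held a mouse far from the other 3 by Dixon's criterion, where chance gives about 1 in 20. H2-Q1 was at 13.5 CPM in KO 3 and at 7.57 to 8.17 CPM in the other MiR-29ab1-/- mice. H2-T10, a polymorphic pseudogene in this annotation, was at 10.8 CPM in KO 4 and at 3.17 to 4.32 CPM in the others. Groups of 3 mice after DSS were not examined in this way.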

How the results depend on the processing

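No member had an adjusted p under 0.05 in any alternative with edgeR or DESeq2. The number of all genes at an adjusted p under 0.05 without DSS was 23 with DESeq2, 11 without a filter on low counts and 0 with at least 10 reads in every mouse. After DSS it was 59, 46 and 0 under the same 3 settings. At an unadjusted p under 0.05 there were 1099 genes without the filter in mice without DSS, 1819 after DSS and 1154 in the interaction. With all 14 mice in 1 model, 1 of 31 members was higher without DSS (2.07% of all genes), and 1 was higher and 1 lower after DSS (3.23% and 3.84%). With DESeq2, 2 members had a smaller genotype difference after DSS than without (2.41% of all genes). The cause of these shifts was not tested. Members higher without DSS at that p were 9 with DESeq2, 6 with RLE factors and 8 with TMM factors that left out class I and class II genes, beside 2.29%, 2.12% and 2.27% of all genes in these fits.

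Leaving out each mouse in turn without DSS gave 3 to 5 genes at an adjusted p under 0.05, and 0 to 13 members higher at an unadjusted p under 0.05. The log2 fold change ran from 0.22 to 0.74 for H2-K1, 0.19 to 0.66 for H2-D1, 0.29 to 0.72 for B2m, 0.56 to 1.14 for Tap1 and 0.56 to 1.48 for Nlrc5, lowest in each without KO 4. It ran from −0.28 to 0.18 for H2-Q2 and from −0.13 to 0.14 for Cd1d1. For Psme2 it ran from 0.0082 without KO 3 to 0.24 without KO 2. After DSS it gave 0 to 93 genes at an adjusted p under 0.05 (93 without KO c), 483 to 2530 at an unadjusted p under 0.05, 0 to 2 members higher, 0 to 4 lower (4 without WT a, beside 2.21% of all genes) and 9 to 25 with a positive log2 fold change (9 without WT a). The log2 fold change after DSS ran from −0.22 to 0.28 for H2-K1, 0.0012 to 0.55 for H2-D1, 0.14 to 0.43 for H2-Q2, −0.42 to 0.19 for B2m, −0.62 to −0.03 for Tap2, 0.26 to 0.55 for Psme2, −0.52 to 0.30 for Tap1, −0.0697 to 0.21 for Tapbpl, −0.23 to 0.53 for Psmb8, −0.39 to 0.27 for Psmb9 and −0.0571 to 0.80 for Nlrc5. In the interaction it gave 0 to 1 genes at an adjusted p under 0.05, 410 to 1493 at an unadjusted p under 0.05, 0 to 1 members with a larger and 0 to 11 with a smaller difference after DSS (11 without WT a, 4 without KO c), and log2 values of −0.45 to 0.11 for H2-D1, −0.97 to −0.37 for B2m, −1.47 to −0.65 for Tap1, −1.02 to −0.44 for Tap2 and −1.29 to −0.22 for Nlrc5.

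With the replicate number as a block, 4 members were higher without DSS (2.18% of all genes), 3 genes had an adjusted p under 0.05, and the log2 fold change of Cd1d1 was 0.0065. B2m, Tap1 and Psmb9 still passed in this fit. Tap2, Tapbpl and Psmb8 no longer passed, at an unadjusted p of 0.0589, 0.0643 and 0.0614 from edgeR. Correlations of same-numbered mice were −0.03, 0.15, −0.19 and −0.13, so the numbers are not shown to pair the mice. After DSS the columns are numbered otherwise than the mice. With the column number as a block, an alternative chosen after seeing the data, 1 gene had an adjusted p under 0.05, 1 member, H2-Q1, was higher beside 4.16% of all genes (Psme2 and H2-Q2 no longer passed, at an unadjusted p of 0.0528 and 0.0592 from edgeR) and the log2 fold change was 0.0445 for Tap1 and 0.0157 for Psmb9. Correlations of mice with the same column number were −0.06, 0.05 and 0.04, so these numbers are not shown to pair the mice either. Depth limited Mr1, with 2 to 13 reads without DSS and 5 to 9 after DSS.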
